A study of Mus musculus with 9 samples.

Results

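The genes described are the conjugating (phase II) enzymes of mouse liver. They comprise the glutathione S-transferases (GSTs), the UDP-glucuronosyltransferases (UGTs) and the cytosolic sulfotransferases (SULTs). Members were all Ensembl genes of the deposited table named as cytosolic or kappa Gst, as microsomal Mgst, as Ugt1 to Ugt3 or as Sult1 to Sult5, pseudogenes left out. The rule found 66 of 55414 Ensembl features: 23 cytosolic and kappa GSTs, 3 microsomal GSTs, 21 UGTs and 19 SULTs. It used names only and no measured value.

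Phase II enzymes attach a polar group to drugs, bile pigments, steroids and lipid oxidation products, so that these can leave in bile or urine. GSTs use glutathione, UGTs use UDP-glucuronic acid and SULTs use the sulfate donor PAPS (3′-phosphoadenosine 5′-phosphosulfate). The liver is the main site of all of these reactions, and hepatocytes carry most of the enzymes. Many of the genes are known to answer to the nuclear receptors CAR and PXR, to the aryl hydrocarbon receptor or to the oxidative stress factor NRF2. Several differ between male and female mouse liver.

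The study sequenced liver RNA of 9 NSG mouse samples in 3 groups of 3. NSG mice are immunodeficient hosts without mature lymphocytes or natural killer cells. One group received phosphate-buffered saline (PBS) through the tail vein, one extracellular vesicles (EVs) shed by MCF-10A, which is a human line of breast epithelium that does not form tumours, and one EVs shed by MDA-MB-231, which is a triple-negative line of human breast cancer. Injections ran over 5 weeks in each group. Sex, age and dose are not given in the sources used here, nor whether the 3 samples of a group were separate animals, so p-values measure the spread between these samples, which may be technical.

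Values are TPM (transcript abundance per length, scaled to the library total), so they can be set side by side between genes. Tests were made on log2(TPM + 1) with limma, adjusted by Benjamini-Hochberg over the 12860 genes whose mean reached 1 TPM, and called means an adjusted p under 0.05. All log2 changes below are on that scale. How deeply a library was read cannot be recovered from TPM. Libraries PBS 1 and MDA-MB-231 EV 3 differed from the rest, with Xist at 320.2 and 273 TPM against 7.11 to 74.9 in the other 7 libraries and Mug2 at 750.1 and 789 against 0 to 32.1. Mitochondrial transcripts held 26.3% of the TPM of PBS 1 and 4.96% to 12.1% in the other 8 libraries. MCF-10A EV 1 had acute phase gene Saa1 at 28585 TPM, a summed neutrophil marker level of 4340 against 18.8 to 203 elsewhere, and a summed erythroid marker level of 16021 against 781 to 4171. MDA-MB-231 EV 1 had the highest summed levels of 6 hepatocyte markers (101495 against 37471 to 91926) and of 4 stellate cell markers (224 against 39.1 to 94.1). Alb, at 65814 TPM there, made up most of the first sum. Alb, Cps1 and Cyp2e1 were highest in that library, and Ttr, Apoa1 and Tat were not. Of the stellate cell markers, Lrat, Dcn and Reln were highest there, and Des was not. PBS 2 had a fat marker sum of 469 against 7.05 to 18.5. Over the 9 libraries, Kupffer cell markers summed to 154 to 520 TPM, cholangiocyte markers to 24.0 to 127 and sinusoidal endothelial markers to 59.0 to 155. The Kupffer cell markers split in MCF-10A EV 1, which had their highest sum. Clec4f was at 0.61 TPM there, against 96.45 to 242.95 in the other libraries. Cd5l (422.06 TPM), Adgre1 (65.71) and Timd4 were at their highest in that library, and Vsig4 was neither highest nor lowest. Kidney markers summed to at most 0.49 TPM in every library, with Umod and Slc12a1 at 0 in all 9, and pancreas markers to at most 20.7 in MDA-MB-231 EV 3.

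Together the 66 genes held between 0.670% (PBS 1) and 1.44% (MDA-MB-231 EV 1) of the TPM of a library, the lowest share being in the library with the most mitochondrial transcripts, whose part in it was not tested. Averaged over the 9 libraries, 2 genes exceeded 1000 TPM, 16 lay between 100 and 1000, 31 between 10 and 100, 6 between 1 and 10, and 11 under 1. The most abundant were Mgst1, a microsomal GST that also reduces lipid hydroperoxides, at 2689 TPM, and Gstm1, a mu class GST, at 2159 TPM. The 11 genes under 1 TPM were not tested: Gsta1, Gsto2, Gstt4, Mgst2, Ugt2a1, Ugt2a2, Ugt2b38, Sult1c1, Sult2a3, Sult2a7 and Sult4a1. Of these, Ugt2a1 was listed at 0 in every library, and Mgst2 reached 5.61 TPM in MCF-10A EV 1. Tests therefore cover 55 members, 20 cytosolic and kappa GSTs, 2 microsomal GSTs, 18 UGTs and 15 SULTs.

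No member passed the test in any of the 3 comparisons. Between MDA-MB-231 EV and PBS, 0 of 55 members and 0.00% of all tested genes were called, and 3 members against 1.55% of all genes had an unadjusted p under 0.05 (Sult2a2, Ugt1a1 and Ugt1a9). Between MCF-10A EV and PBS, 0 members and 0.194% of all genes were called, and 0 members against 3.20% had an unadjusted p under 0.05. Between MDA-MB-231 EV and MCF-10A EV, 0 members and 0.218% of all genes were called, and 2 members against 3.83% had an unadjusted p under 0.05 (Ugt1a7c and Gstt3). These counts of members called stayed at 0 under all 20 alternative settings. The first and second comparisons share the PBS libraries, and the third shares its libraries with both.

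The typical member had a slightly positive log2 change, as did the typical gene. Of 55 members, 41 had a log2 change above 0 between MDA-MB-231 EV and PBS, against 69.7% of all tested genes, with a median of 0.36 for members and 0.21 for all. Leaving out PBS 1 alone gave a member median of 0.089, and leaving out MDA-MB-231 EV 3 alone gave 0.76. Between MCF-10A EV and PBS, 32 members were above 0 against 56.8% of all genes, with medians of 0.11 and 0.07. Between MDA-MB-231 EV and MCF-10A EV, 39 members were above 0 against 65.0%, with medians of 0.26 and 0.17. After quantile normalization the member counts were 35, 33 and 29, against 53.5%, 56.9% and 49.0% of all genes, and the median of all genes moved by -0.17 in both the first and the third comparison. Leaving the mitochondrial genes out of the total moved the median of all genes by -0.11 between MDA-MB-231 EV and PBS.

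**Figure D1:**
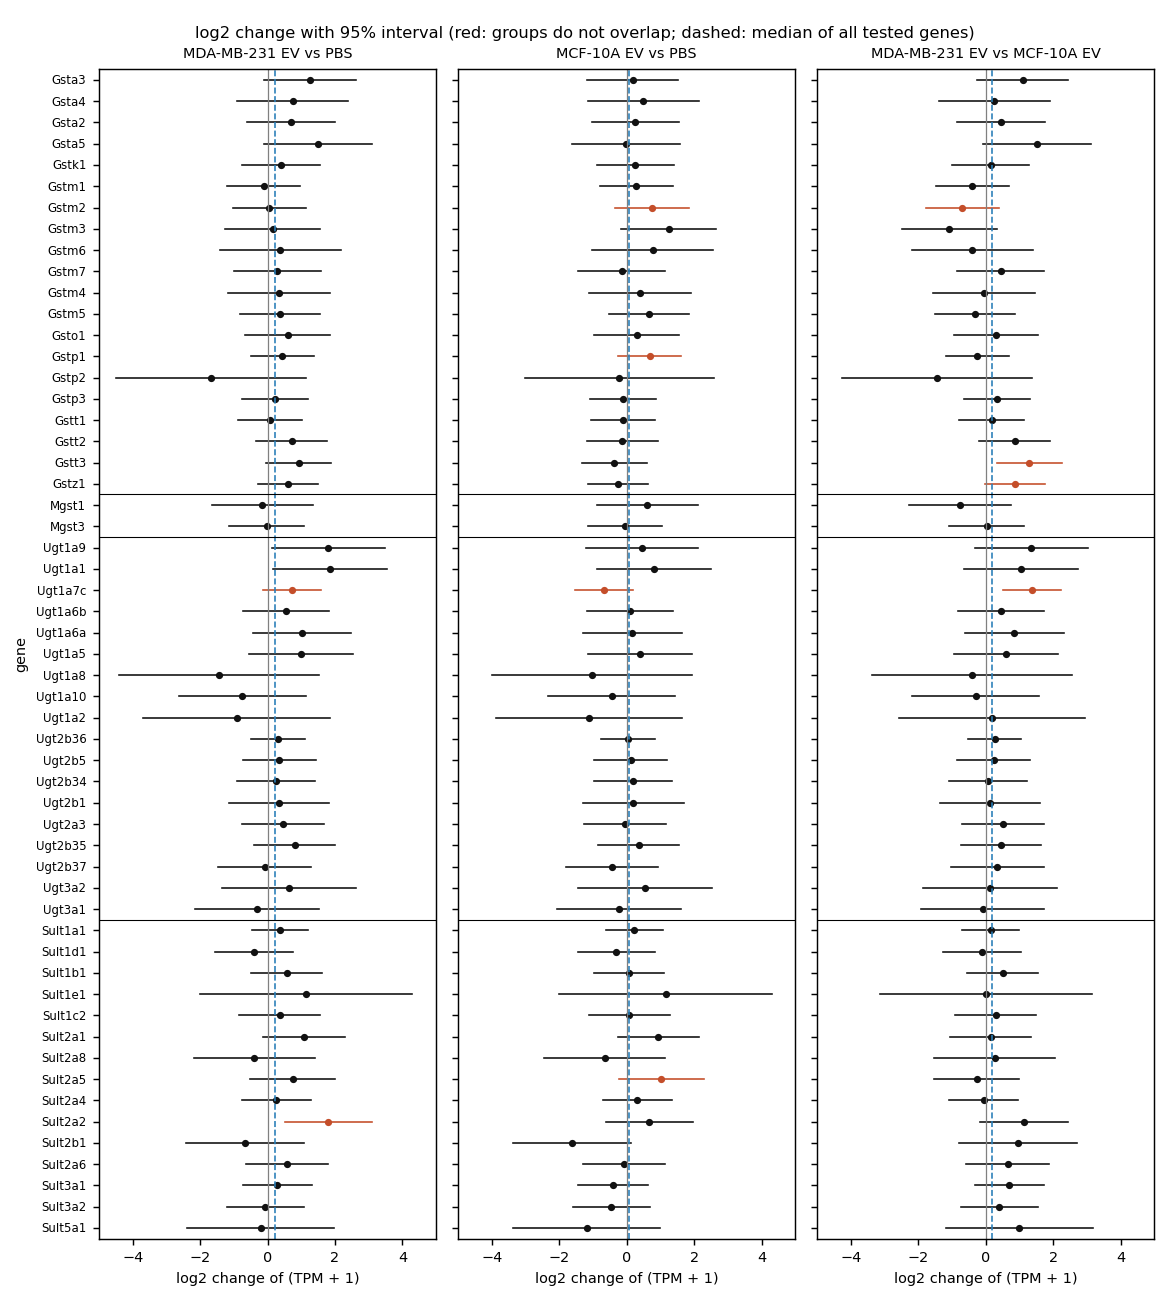
log2 change of (TPM + 1) with its 95% interval from limma for the 55 tested members (rows, in the order GST, MGST, UGT, SULT, split by black lines) in the 3 comparisons (columns). Red marks genes whose 3 libraries in one group do not overlap the 3 in the other, and the dashed line is the median of all 12860 tested genes; most intervals cross 0, and those of Sult2a2, Ugt1a1 and Ugt1a9 (left) and of Ugt1a7c and Gstt3 (right) do not.

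Few members had groups that did not overlap. MDA-MB-231 EV libraries were all above all PBS libraries for 2 of 55 members (Sult2a2 and Ugt1a7c; 5.23% of all genes) and all below for 0 (0.801%). MCF-10A EV libraries were all above PBS for 3 members (Gstm2, Gstp1 and Sult2a5; 2.95%) and all below for 1 (Ugt1a7c; 4.74%). MDA-MB-231 EV libraries were all above MCF-10A EV for 3 members (Gstt3, Gstz1 and Ugt1a7c; 4.73%) and all below for 1 (Gstm2; 1.80%). The largest of these counts, 3 of 55 members, is 5.45%, so the shares lie near the background.

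Within groups the members varied together from library to library. In PBS 1, 39 of the 55 tested members had their lowest value of the group, against 34.8% of all tested genes, and in MDA-MB-231 EV 3 it was 36 members against 30.3%. In MCF-10A EV 1 it was 30 members against 22.0%. Over all 36 pairs of libraries, the pair that most often held the 2 highest values of a member was MDA-MB-231 EV 1 and 2, for 21 of 55 members against 4.47% of all genes. The pair that most often held the 2 lowest values was PBS 1 and MDA-MB-231 EV 3, for 20 of 55 members against 11.4%. These are counts after the values were seen, with no test, and many members share sequence or a locus. The hepatocyte marker sum was 37683 TPM in MDA-MB-231 EV 3 and 37471 in PBS 1, and MDA-MB-231 EV 1 and 2 had 101495 and 70234. Within PBS, each of these markers was lowest in PBS 1. Within MDA-MB-231 EV, Alb, Ttr, Cps1 and Cyp2e1 were lowest in the third library. Apoa1 and Tat were highest there, at 20515 and 816 TPM against 18436 and 615 in MDA-MB-231 EV 1. The part of these markers in the members' levels was not tested, and in whole liver fewer cells of a type and less RNA per cell cannot be told apart.

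**Figure D2:**
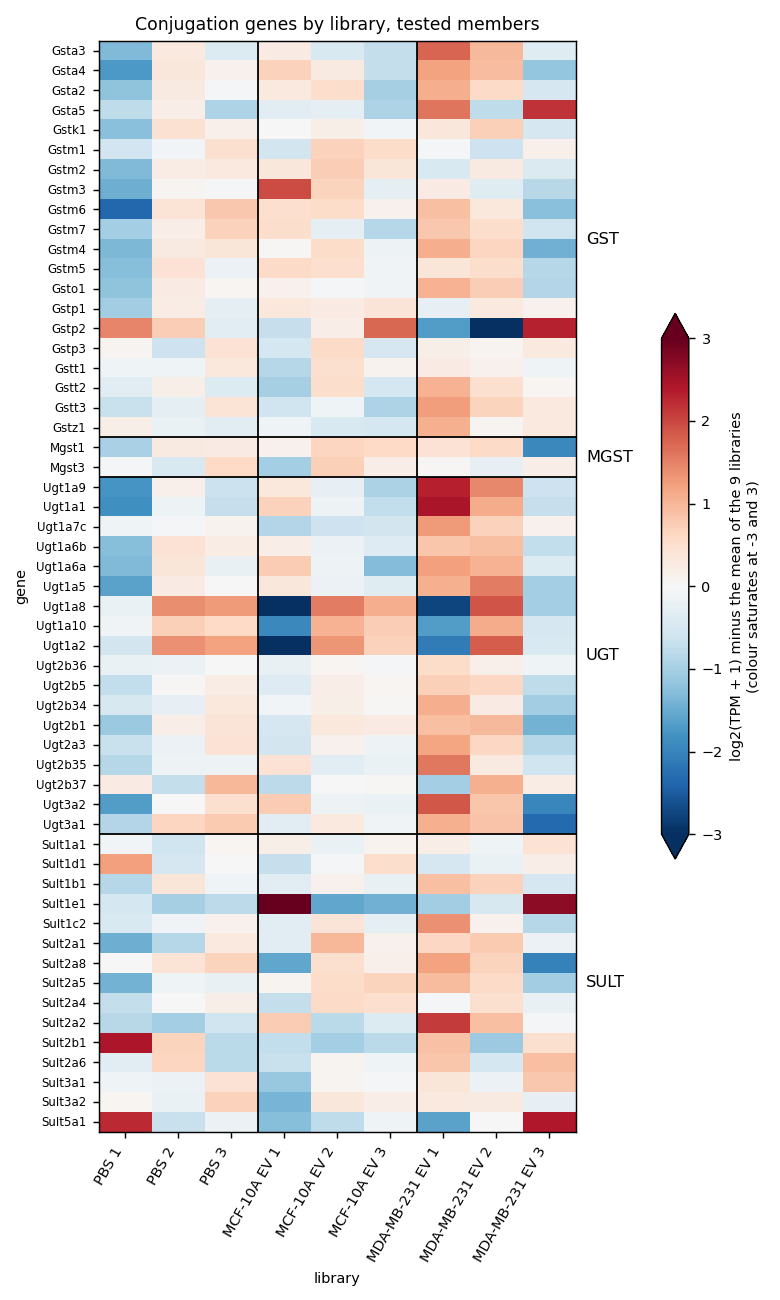
Heat map of the 55 tested members (rows, by family) in the 9 libraries (columns, 3 per group, split by black lines). Colour is log2(TPM + 1) minus the gene's mean over the 9 libraries, red higher and blue lower; the columns of PBS 1 and MDA-MB-231 EV 3 are mostly blue, and those of MDA-MB-231 EV 1 and 2 are mostly red, with Ugt1a8, Ugt1a10, Ugt1a2 and Gstp2 against that pattern in MDA-MB-231 EV 1.

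Without PBS 1 and MDA-MB-231 EV 3, 0 members were called, as with all libraries. Unadjusted p under 0.05 was then reached by 8 of 55 members between MDA-MB-231 EV and PBS (3.42% of all genes), by 0 between MCF-10A EV and PBS (3.36%), and by 17 between MDA-MB-231 EV and MCF-10A EV (7.52%). The median member log2 change was 0.40, -0.16 and 0.57 in the 3 comparisons, beside 0.18, 0.10 and 0.08 for all genes. The PBS and MDA-MB-231 EV groups then held 2 libraries each. Both libraries were picked for removal after the values were seen, and both held the lowest value of their group for most members. MCF-10A EV 1, the lowest of its group for 30 members, was kept. The counts and medians of this paragraph depend on that choice and cannot serve as support for a difference.

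The summed levels of the 4 families overlapped between groups, and for the microsomal GSTs and the UGTs MDA-MB-231 EV 3 lay far below the other two libraries of its group. Cytosolic and kappa GSTs summed to 3369, 5233 and 5647 TPM in PBS, 4883, 6607 and 5985 in MCF-10A EV, and 7008, 5242 and 5363 in MDA-MB-231 EV. Microsomal GSTs summed to 1257, 2914 and 2889 in PBS, 2625, 3816 and 3669 in MCF-10A EV, and 3286, 3599 and 681 in MDA-MB-231 EV, where the third library was the lowest of all 9. UGTs summed to 609, 1026 and 1095 in PBS, 924, 1046 and 899 in MCF-10A EV, and 2223, 1643 and 647 in MDA-MB-231 EV. The first 2 of these last libraries were the highest of the 9 and the third was next to the lowest. SULTs summed to 1466, 1142 and 1742 in PBS, 1052, 1570 and 1529 in MCF-10A EV, and 1879, 1515 and 1958 in MDA-MB-231 EV. Every pair of groups overlapped for each of the 4 sums.

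**Figure D3:**
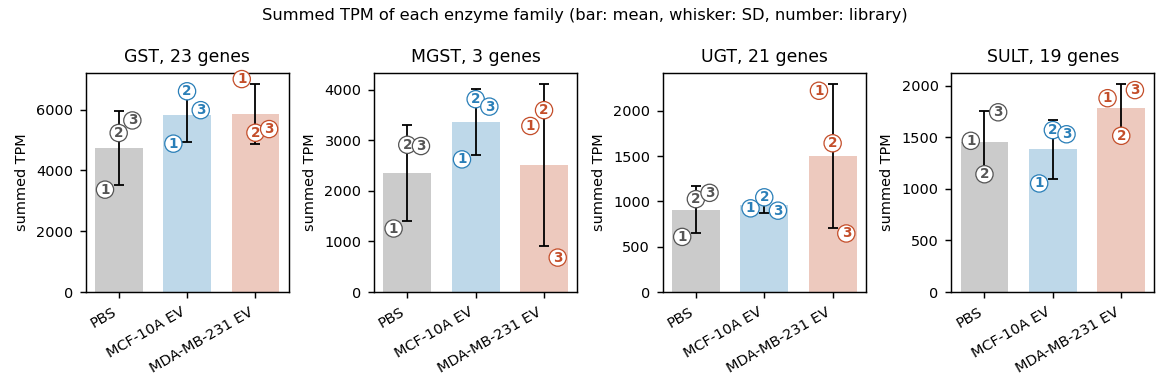
Summed TPM of each family (one panel each, linear axis from 0) in the 3 groups; bars are means, whiskers SD, and numbered circles the 3 libraries. The groups overlap in all 4 panels, and MDA-MB-231 EV 3 lies far below MDA-MB-231 EV 1 and 2 for the microsomal GSTs and the UGTs.

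Among alpha class GSTs, which detoxify lipid peroxidation products, Gsta3 made up 88.6% of the class. Gsta3 stood at 215, 659.6 and 409.6 TPM in PBS, at 639.7, 395 and 330.4 in MCF-10A EV, and at 1828, 1061 and 419 in MDA-MB-231 EV. Both high values came from MDA-MB-231 EV 1 and 2, and the third library lay inside the PBS range. The log2 change of Gsta3 between MDA-MB-231 EV and PBS was 1.26 ± 0.61 (SE, n = 3 per group; 95% interval -0.10 to 2.63; limma adjusted p = 1). All 4 tested alpha genes had a positive log2 change in that comparison, with a median of 1.00. Gsta5, a scarce alpha GST with 50.5% of its 50-base words shared with other genes, had the smallest p of its class, with a log2 change of 1.52 ± 0.72 between MDA-MB-231 EV and MCF-10A EV (adjusted p = 1). It was listed at 0.11, 1.15 and 0 TPM in PBS, 0.48, 0.56 and 0 in MCF-10A EV, and 4.78, 0.11 and 7.49 in MDA-MB-231 EV.

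Gsta3 lies on chromosome 1, apart from Gsta1, Gsta2, Gsta4 and Gsta5 on chromosome 9, and no 50-base word of its transcripts occurs in another gene. Its RefSeq promoter window (250 bases before to 50 after the start, chr1:21240335-21240634, plus strand, GRCm38.p6) is shown because it holds the core of the antioxidant response element, the sequence bound by NRF2. Capitals mark that core, TGACNNNGC, whose first base lies at -121 from the start.
Gsta3: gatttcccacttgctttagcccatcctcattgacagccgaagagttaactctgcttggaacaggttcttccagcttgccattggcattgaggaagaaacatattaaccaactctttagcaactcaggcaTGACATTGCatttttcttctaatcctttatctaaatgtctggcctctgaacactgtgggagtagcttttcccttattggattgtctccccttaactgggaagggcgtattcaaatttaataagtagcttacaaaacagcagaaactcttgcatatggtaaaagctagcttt
The core was searched on both strands in 69 windows of 57 members with a RefSeq promoter. It was found in 4 member windows (5.80%), against 12.4% of all 32851 promoter windows of 300 bases. The other 3 matches are shown with 10 bases on each side, at -42 in Gstm5, -129 in Gstm7 and -56 in Mgst1, the last on the opposite strand.
Gstm5: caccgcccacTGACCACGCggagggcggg
Gstm7: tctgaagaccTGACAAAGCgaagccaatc
Mgst1: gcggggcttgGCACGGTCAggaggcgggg
The Gstm5 match overlaps a match to the core of the xenobiotic response element, GCGTG, which the aryl hydrocarbon receptor binds. A match is a description of letters, not a bound site. All 4 genes had the lowest value of their group in PBS 1 and in MDA-MB-231 EV 3. The same held for 39 and 36 of the 55 tested members (34.8% and 30.3% of all tested genes). Gstm5 stood between 6.85 and 24.7 TPM in PBS, 16.9 and 27.4 in MCF-10A EV, and 9.52 and 26.7 in MDA-MB-231 EV. Gstm7 stood between 21.6 and 73.1, 24.6 and 65.8, and 29.5 and 79.5.

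The 7 mu class genes lie in 1 cluster on chromosome 3, and Gstm1 made up 81.2% of their sum. Gstm1 stood at 1380, 1926 and 2848 TPM in PBS, 1386, 3307 and 3008 in MCF-10A EV, and 1983, 1327 and 2262 in MDA-MB-231 EV, and all groups overlapped. Gstm2 stood at 68.2, 200.4 and 210.2 TPM in PBS, 218, 287 and 220.0 in MCF-10A EV, and 124, 205 and 127 in MDA-MB-231 EV. The MCF-10A EV libraries were above every other library, narrowly so in the case of PBS 3. The log2 change of Gstm2 was 0.75 ± 0.49 between MCF-10A EV and PBS and -0.69 ± 0.49 between MDA-MB-231 EV and MCF-10A EV, with an adjusted p of 1 in limma for both. Gstm3 had the smallest p of the GSTs between MCF-10A EV and PBS, at 1.24 ± 0.63 (interval -0.16 to 2.65). It stood at 48.4, 143 and 132 TPM in PBS, 522, 215 and 109 in MCF-10A EV, and 160.2, 104 and 75.7 in MDA-MB-231 EV. The highest of these came from MCF-10A EV 1, the library with the high Saa1 and neutrophil markers, and the part of those in the value was not tested. Of 7 mu genes, 6 had a positive log2 change between MCF-10A EV and PBS, 6 between MDA-MB-231 EV and PBS, and 1 between MDA-MB-231 EV and MCF-10A EV.

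Pi class genes sit together on chromosome 19. Gstp1, known as a male-biased enzyme in mouse liver, stood at 364, 864 and 605 TPM in PBS, 931, 879.6 and 973 in MCF-10A EV, and 624, 914 and 820.3 in MDA-MB-231 EV. MCF-10A EV libraries were all above PBS, by a log2 change of 0.69 ± 0.42 (interval -0.25 to 1.62; limma adjusted p = 1). Gstp2 was the most variable abundant member: 242, 145 and 70.3 TPM in PBS, 53.6, 101 and 291 in MCF-10A EV, and 26.6, 5.54 and 432 in MDA-MB-231 EV. Its lowest 2 libraries were MDA-MB-231 EV 1 and 2, and its highest was MDA-MB-231 EV 3. Without PBS 1 and MDA-MB-231 EV 3 its log2 change between MDA-MB-231 EV and PBS was -2.93 ± 0.88 (limma adjusted p = 0.969). With all libraries it was -1.67 ± 1.27. Both left-out libraries were the highest of their groups for Gstp2 and were picked after the values were seen. The value without them depends on that choice and cannot serve as support for a difference. Since 51.0% of the 50-base words of Gstp1 and 50.4% of those of Gstp2 occur in another gene, chiefly each other, the split of reads between both is uncertain. Summed over Gstp1, Gstp2 and Gstp3 the levels were 678, 1054 and 769 TPM in PBS, 1031, 1083 and 1312 in MCF-10A EV, and 728, 992 and 1336 in MDA-MB-231 EV, a narrower spread than that of Gstp2.

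Theta and zeta class genes had the smallest p among the GSTs between the EV groups. Gstt3, a theta GST (ENSMUSG00000001665, chromosome 10), stood at 21.8, 28.7 and 47.0 TPM in PBS, 22.9, 32.3 and 18.2 in MCF-10A EV, and 85.6, 56.6 and 43.6 in MDA-MB-231 EV. The MDA-MB-231 EV libraries were all above MCF-10A EV, and 1 of them overlapped PBS. Its MDA-MB-231 EV libraries gave a log2 change of 1.29 ± 0.43 against MCF-10A EV (interval 0.32 to 2.25; limma adjusted p = 0.987) and of 0.93 ± 0.43 against PBS. A predicted gene shares 20.2% of its words. Gstz1, which also degrades tyrosine as maleylacetoacetate isomerase, stood at 478, 369.5 and 334 TPM in PBS, 384, 306 and 293 in MCF-10A EV, and 886, 448 and 517 in MDA-MB-231 EV. Its MDA-MB-231 EV libraries were all above MCF-10A EV, with a log2 change of 0.85 ± 0.40 (interval -0.04 to 1.75; adjusted p = 1). No other gene shares a word with Gstz1. Gstt1, the most abundant theta gene, stood between 268 and 366 TPM in PBS, 162 and 411 in MCF-10A EV, and 269.5 and 347 in MDA-MB-231 EV. Gsto1, an omega GST, stood between 27.6 and 77.2, 60.6 and 71.0, and 34.9 and 135, and Gstk1, the kappa class enzyme, between 44.8 and 149, 102 and 123, and 75.8 and 178.

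Mgst1 was the most abundant member, and its direction changed with the libraries used. It stood at 1204, 2872 and 2804 TPM in PBS, 2592, 3724 and 3605 in MCF-10A EV, and 3229, 3553 and 616 in MDA-MB-231 EV. The value of MDA-MB-231 EV 3 was below every other library and PBS 1 was the next lowest. The log2 change of Mgst1 was -0.15 ± 0.68 between MDA-MB-231 EV and PBS, and 0.67 without MDA-MB-231 EV 3. In the comparison of the EV groups it was -0.77 ± 0.68, and 0.053 without MDA-MB-231 EV 3. Between MCF-10A EV and PBS it was 0.61 ± 0.68 (interval -0.88 to 2.11). Mgst3 stood between 26.8 and 91.9 TPM over the 9 libraries.

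**Figure D4:**
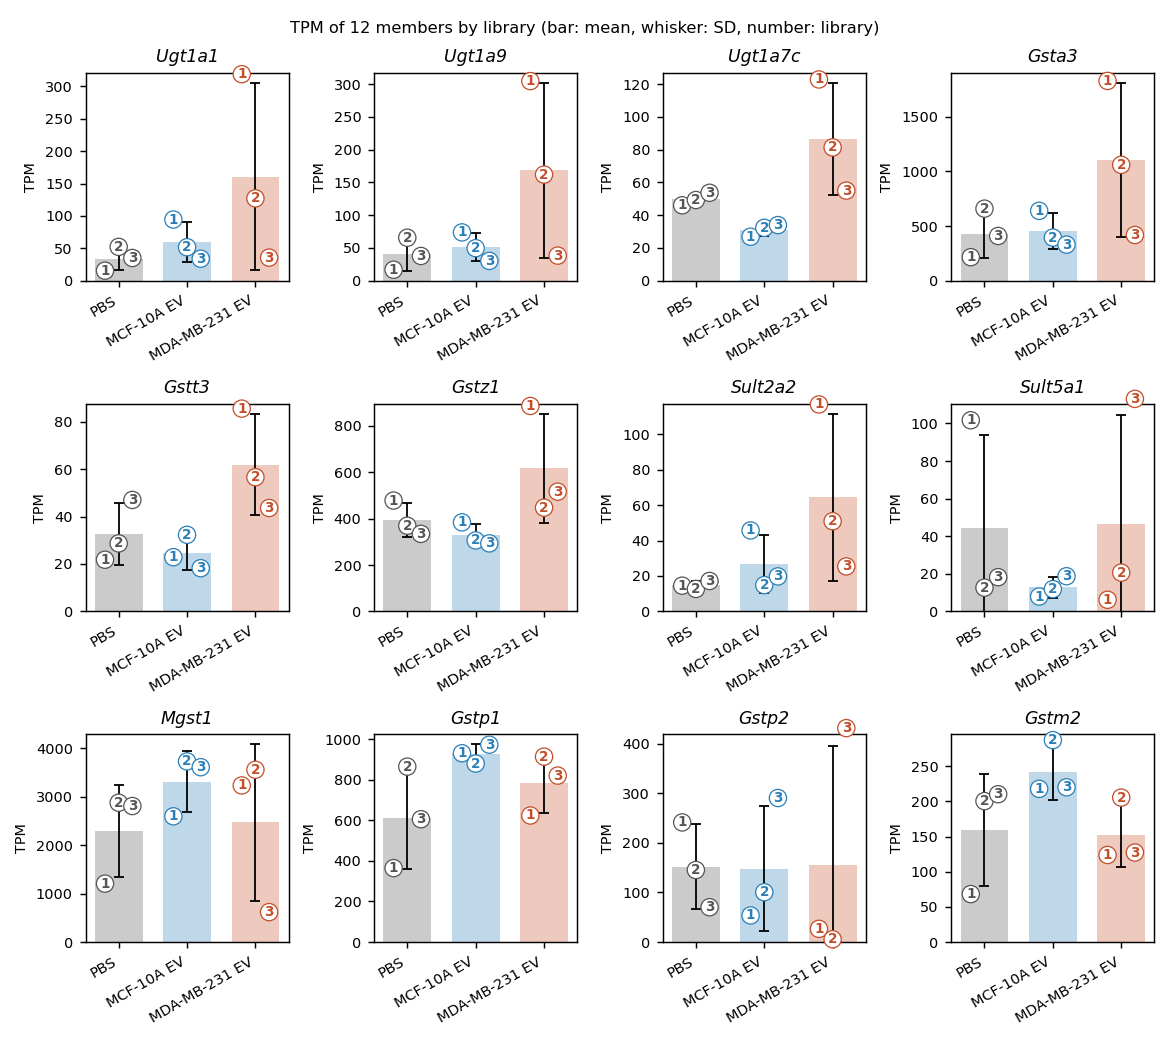
TPM of 12 members (one panel each, linear axis from 0) in the 3 groups; bars are means, whiskers SD, and numbered circles the 3 libraries. MDA-MB-231 EV 1 is the highest library for Ugt1a1, Ugt1a9, Ugt1a7c, Gsta3, Gstt3, Gstz1 and Sult2a2, while MDA-MB-231 EV 3 is the highest for Gstp2 and Sult5a1 and the lowest for Mgst1.

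The UGTs held the member with the smallest p of any comparison. Ugt1a7c (ENSMUSG00000090124, chromosome 1) stood at 46.1, 49.3 and 53.7 TPM in PBS, 26.9, 32.3 and 34.0 in MCF-10A EV, and 123, 81.4 and 55.0 in MDA-MB-231 EV. The 3 groups did not overlap at all, with MCF-10A EV lowest and MDA-MB-231 EV highest, and the closest libraries of PBS and MDA-MB-231 EV were 53.7 and 55.0 TPM. In MDA-MB-231 EV relative to MCF-10A EV its log2 change was 1.38 ± 0.39 (interval 0.52 to 2.24; limma adjusted p = 0.631). Against PBS it was 0.71 ± 0.39 for MDA-MB-231 EV and -0.66 ± 0.39 for MCF-10A EV, with an adjusted p of 1 in limma for both.

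Ugt1a1 and Ugt1a9 had the largest log2 changes of the family between MDA-MB-231 EV and PBS. Ugt1a1, the enzyme that conjugates bilirubin, stood at 15.5, 52.3 and 35.1 TPM in PBS, 94.4, 51.7 and 34.0 in MCF-10A EV, and 319, 127 and 35.7 in MDA-MB-231 EV. The third MDA-MB-231 EV library lay within the PBS range and the other two above every PBS library. The log2 change was 1.85 ± 0.76 (interval 0.16 to 3.54; limma adjusted p = 1). Ugt1a9, which conjugates phenols and fatty acids, stood at 16.8, 65.6 and 37.8 TPM in PBS, 73.7, 49.7 and 30.3 in MCF-10A EV, and 305, 162 and 38.3 in MDA-MB-231 EV. Its log2 change was 1.80 ± 0.75 (interval 0.14 to 3.47; limma adjusted p = 1). Leaving out MDA-MB-231 EV 1 gave 1.11 for Ugt1a1 and 1.16 for Ugt1a9. Leaving out both PBS 1 and MDA-MB-231 EV 3 gave 2.21 ± 0.60 and 2.13 ± 0.54, with adjusted p of 0.868 and 0.670 in limma. Both libraries were picked after the values were seen and were the lowest of their groups for Ugt1a1 and Ugt1a9. Values without them cannot serve as support for a difference.

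The RefSeq promoter windows of both genes are shown because Ugt1a1 and Ugt1a9 had like values in all 9 libraries while their neighbour Ugt1a8 did not. Of the 50-base words of Ugt1a1 and Ugt1a9, 58.2% and 62.0% occur in another gene, and the part of this in their like values was not tested. Capitals mark GTTAAT or its reverse complement ATTAAC, the half-site of the hepatocyte factor HNF1, in Ugt1a1 (chr1:88211709-88212008, match at -41) and Ugt1a9 (chr1:88070529-88070828, match at -91). In Ugt1a8 (chr1:88087578-88087877, match at -70) they mark the xenobiotic core on the opposite strand, and all 3 windows are on the plus strand of GRCm38.p6.
Ugt1a1: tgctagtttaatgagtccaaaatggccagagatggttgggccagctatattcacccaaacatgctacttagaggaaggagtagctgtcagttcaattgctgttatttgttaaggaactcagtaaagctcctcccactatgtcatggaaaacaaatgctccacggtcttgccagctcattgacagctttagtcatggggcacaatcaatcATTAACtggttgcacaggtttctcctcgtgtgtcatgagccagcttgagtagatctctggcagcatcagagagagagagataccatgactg
Ugt1a9: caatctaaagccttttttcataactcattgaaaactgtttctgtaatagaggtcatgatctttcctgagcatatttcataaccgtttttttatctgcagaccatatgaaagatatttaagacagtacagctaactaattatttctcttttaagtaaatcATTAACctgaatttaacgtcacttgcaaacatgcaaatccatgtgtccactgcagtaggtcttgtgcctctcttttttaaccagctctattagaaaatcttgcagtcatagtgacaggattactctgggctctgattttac
Ugt1a8: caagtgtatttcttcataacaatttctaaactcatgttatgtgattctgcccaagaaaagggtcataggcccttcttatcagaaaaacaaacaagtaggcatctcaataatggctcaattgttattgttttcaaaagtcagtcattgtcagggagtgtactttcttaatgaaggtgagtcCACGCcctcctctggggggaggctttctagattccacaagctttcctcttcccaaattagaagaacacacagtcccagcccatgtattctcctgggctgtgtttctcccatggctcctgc
The HNF1 half-site was added after these sequences were read. Searched on both strands, it was in 14 of 69 member windows (20.3%) and in 7.10% of all windows of that length. The windows of Ugt1a1 and Ugt1a9, which had been read before, are among those 14, so this count cannot test the half-site. Paralogs such as Sult2a3, Sult2a4, Sult2a5 and Sult2a6 share the stretch around it. The Gsta3 window above also holds it, at -149, and the Ugt1a8 window does not. The Ugt1a10 window holds it as well, at -100 and -71. Ugt1a10 and Ugt1a8 had the same 2 lowest libraries, MCF-10A EV 1 and MDA-MB-231 EV 1. The xenobiotic core GCGTG was in 14 member windows (20.3%), against 32.4% of all windows, and neither the Ugt1a1 nor the Ugt1a9 window holds it.

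The Ugt1 genes use alternative first exons spliced to shared later exons. Between 54.2% (Ugt1a7c) and 96.0% (Ugt1a6a) of their 50-base words occur in another gene, so their separate levels depend on how the authors' tool divided shared reads. The 9 genes summed to 140.4, 365 and 292 TPM in PBS, 325, 304 and 222 in MCF-10A EV, and 944, 690.3 and 206 in MDA-MB-231 EV. MDA-MB-231 EV 1 and 2 were the highest libraries and MDA-MB-231 EV 3 was below 2 of the 3 PBS libraries. The make-up of the sum varied too. Ugt1a1 held 11.1% to 14.3% of it in PBS, 15.3% to 29.1% in MCF-10A EV and 17.3% to 33.8% in MDA-MB-231 EV. All libraries of both EV groups were thus above PBS in this share, narrowly so for MCF-10A EV 3 against PBS 2. The share was picked after the values of all 9 genes were seen and was not tested. No other gene of the locus had a share above or below PBS in all libraries of both EV groups. Any share also rises where others of the locus fall.

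Ugt1a8, Ugt1a10 and Ugt1a2 departed from the rest of the locus in MCF-10A EV 1 and MDA-MB-231 EV 1. Ugt1a8 stood at 9.39, 30.4 and 28.0 TPM in PBS, 0.27, 33.6 and 24.4 in MCF-10A EV, and 0.77, 43.3 and 4.93 in MDA-MB-231 EV. Ugt1a2 was listed at 5.77, 24.69 and 22.01 TPM in PBS, 0, 24.1 and 15.0 in MCF-10A EV, and 1.32, 33.9 and 6.27 in MDA-MB-231 EV. Libraries MCF-10A EV 1 and MDA-MB-231 EV 1 were the lowest 2 for all 3 of these genes, 1 library from each EV group. That pair was the lowest 2 for 6 of 55 tested members, against 2.92% of all tested genes. Sult1d1, Sult5a1 and Ugt2b37, outside the locus, were the others. The sum of the locus was nonetheless highest in MDA-MB-231 EV 1. The log2 change of Ugt1a2 between MCF-10A EV and PBS was -1.11 ± 1.24, and 0.34 without MCF-10A EV 1.

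**Figure D5:**
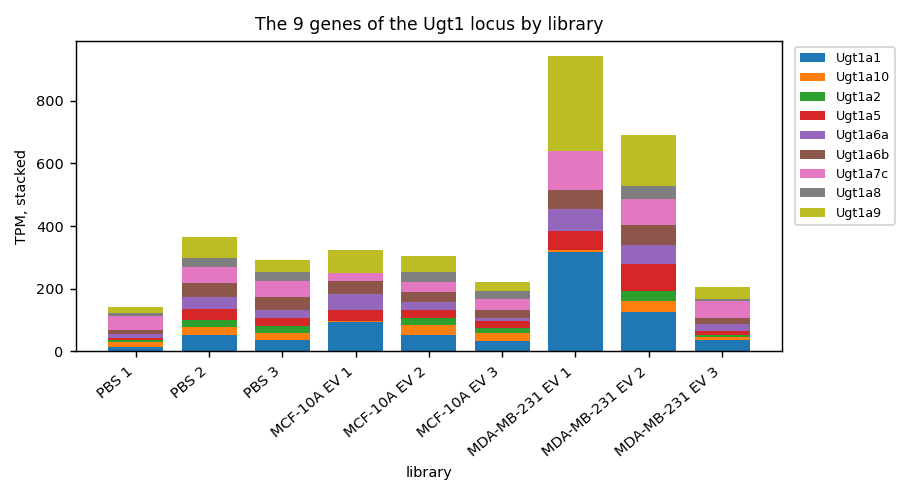
Stacked TPM (linear axis from 0) of the 9 Ugt1 genes in each of the 9 libraries, one colour per gene. The stacks of MDA-MB-231 EV 1 and 2 reach 944 and 690.3 TPM, and the stack of MDA-MB-231 EV 3 reaches 206; Ugt1a8, Ugt1a10 and Ugt1a2 are nearly missing from MCF-10A EV 1 and MDA-MB-231 EV 1.

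The Ugt2 genes, which conjugate steroids, bile acids and many drugs, form a cluster of 10 on chromosome 5. Ugt2b36 was the most abundant UGT and the steadiest of those tested, at 234, 238 and 269.5 TPM in PBS, 230.5, 278 and 261 in MCF-10A EV, and 396, 296 and 245 in MDA-MB-231 EV. Its highest library was 1.72 times its lowest, and its log2 change between MDA-MB-231 EV and PBS was 0.31 ± 0.36 (interval -0.49 to 1.11). In all, 7 Ugt2 genes were tested, and their log2 changes ran from -0.09 to 0.80 between MDA-MB-231 EV and PBS, from -0.44 to 0.36 between MCF-10A EV and PBS, and from 0.06 to 0.51 between MDA-MB-231 EV and MCF-10A EV. Ugt3a2, a UGT that uses other sugar donors, stood at 11.6, 38.9 and 54.8 TPM in PBS, 67.2, 35.2 and 33.6 in MCF-10A EV, and 145, 70.3 and 9.33 in MDA-MB-231 EV, with its lowest values in MDA-MB-231 EV 3 and PBS 1.

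Among SULTs, Sult2a2 had the smallest p between MDA-MB-231 EV and PBS of all members. Sult2a2 (ENSMUSG00000070811, chromosome 7), a sulfotransferase of steroids and bile acids, stood at 14.5, 12.7 and 17.2 TPM in PBS, 45.7, 14.8 and 19.7 in MCF-10A EV, and 117, 50.9 and 25.4 in MDA-MB-231 EV. Every MDA-MB-231 EV library was above every PBS library, and the third overlapped MCF-10A EV. Against PBS its log2 change was 1.80 ± 0.58 (interval 0.51 to 3.09; limma adjusted p = 1), and against MCF-10A EV it was 1.13 ± 0.58. Of its 50-base words 62.1% occur in other Sult2a genes, so its level is uncertain. Summed over the 9 Sult2 genes, all on chromosome 7, levels were 149.5, 214 and 293 TPM in PBS, 202, 389 and 297 in MCF-10A EV, and 504, 409 and 175 in MDA-MB-231 EV, with all groups overlapping.

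The other Sult2 genes had smaller log2 changes between MDA-MB-231 EV and PBS. Sult2a1, the main hydroxysteroid sulfotransferase, stood at 32.2, 49.3 and 112 TPM in PBS, 72.7, 179.9 and 98.4 in MCF-10A EV, and 139, 156 and 80.4 in MDA-MB-231 EV. Against PBS, its log2 change was 1.08 ± 0.54 for MDA-MB-231 EV and 0.94 ± 0.54 for MCF-10A EV. Sult2a5 stood at 14.4, 36.2 and 34.2 TPM in PBS, 42.1, 59.3 and 63.6 in MCF-10A EV, and 77.9, 59.9 and 18.8 in MDA-MB-231 EV. Its MCF-10A EV libraries were all above PBS, by a log2 change of 1.02 ± 0.57 (interval -0.24 to 2.28). Sult2a8, which sulfates bile acids in mice, stood at 54.5, 73.7 and 88.0 TPM in PBS, 18.2, 77.8 and 61.3 in MCF-10A EV, and 128, 89.0 and 12.9 in MDA-MB-231 EV. Sult2b1, a cholesterol sulfotransferase, was scarce, at 10.4, 2.35 and 0.21 TPM in PBS, 0.26, 0.04 and 0.20 in MCF-10A EV, and 2.92, 0 and 1.96 in MDA-MB-231 EV. PBS 1 was the highest by far, and the log2 change between MCF-10A EV and PBS was -1.63 ± 0.79.

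Among the Sult1 and Sult3 genes, Sult1a1, Sult1d1, Sult3a1 and Sult3a2 were the abundant ones, each with a mean above 100 TPM. Sult1a1, the phenol sulfotransferase, stood between 251 and 395 TPM in PBS, 331 and 430.5 in MCF-10A EV, and 349 and 516 in MDA-MB-231 EV. Sult3a1, known as a female-biased gene of mouse liver, stood at 459.6, 445 and 679.6 TPM in PBS, 229, 533 and 479.6 in MCF-10A EV, and 646, 443 and 887 in MDA-MB-231 EV. It was the most abundant sulfotransferase, and its log2 change between MDA-MB-231 EV and MCF-10A EV was 0.70 ± 0.47. Sult1e1, the estrogen sulfotransferase, was at 1.19 TPM or less in 7 libraries, at 53.8 in MCF-10A EV 1 and at 18.5 in MDA-MB-231 EV 3. Sult5a1, an orphan sulfotransferase, stood at 102, 12.6 and 18.2 TPM in PBS, 7.90, 11.8 and 18.7 in MCF-10A EV, and 6.17, 20.6 and 113 in MDA-MB-231 EV. It was the 1 of 55 tested members whose 2 highest libraries were PBS 1 and MDA-MB-231 EV 3, against 22.1% of all tested genes. That pair had the lowest levels of many other members. In the other libraries Sult5a1 was at most 20.6 TPM.

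Genes that supply the donor molecules were measured beside the enzymes, and none passed the test. Of the glutathione supply list, 8 of 10 genes were tested, and 8, 6 and 6 had a log2 change above 0 between MDA-MB-231 EV and PBS, MCF-10A EV and PBS, and MDA-MB-231 EV and MCF-10A EV. Above 0 in the same comparisons were 69.7%, 56.8% and 65.0% of all tested genes. Gsr, the reductase that restores glutathione, had the smallest p of the list between MDA-MB-231 EV and PBS (1.34 ± 0.73), and stood at 30.2 TPM in MDA-MB-231 EV 1 against 1.47 to 13.7 in the other libraries. Of 4 UDP-glucuronic acid supply genes, 3, 2 and 2 were above 0. Ugdh, which makes UDP-glucuronic acid, stood between 20.3 and 51.1 TPM in PBS, 28.8 and 35.8 in MCF-10A EV, and 19.3 and 47.5 in MDA-MB-231 EV. Of 7 PAPS supply genes, 6, 5 and 5 were above 0, and Papss2, the main hepatic PAPS synthase, stood between 45.3 and 75.5 TPM in PBS, 40.7 and 62.4 in MCF-10A EV, and 57.0 and 115 in MDA-MB-231 EV. MDA-MB-231 EV 1 had the highest summed level of each of these 3 lists, as it had for the cytosolic and kappa GSTs and for the UGTs.

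Other conjugating enzymes, exporters and hydrolases also gave no called gene. As3mt, an arsenic methyltransferase, had the smallest p of 10 tested conjugating genes outside the families between MCF-10A EV and PBS. It stood at 8.81, 9.99 and 15.1 TPM in PBS, 42.1, 23.5 and 23.3 in MCF-10A EV, and 27.8, 15.9 and 16.9 in MDA-MB-231 EV, with both EV groups above PBS. Its log2 change was 1.30 ± 0.41 for MCF-10A EV against PBS (limma adjusted p = 0.763) and 0.78 ± 0.41 for MDA-MB-231 EV. Among 8 tested conjugate exporters, Abcb1b, a drug efflux pump, stood at 44.5, 68.7 and 54.2 TPM in PBS, 103, 204 and 164 in MCF-10A EV, and 21.2, 71.3 and 91.2 in MDA-MB-231 EV. Its log2 change was 1.44 ± 0.55 between MCF-10A EV and PBS and -1.52 ± 0.55 between MDA-MB-231 EV and MCF-10A EV, with an adjusted p of 1 in limma for both. Abcc3, which exports glucuronides to blood, had a log2 change of 1.03 ± 0.49 between MDA-MB-231 EV and PBS. Of 3 tested hydrolases of conjugates, Gusb, which cleaves glucuronides, had 0.91 ± 0.55 in that comparison.

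The regulators and their other targets likewise held 0 called genes. Of 14 regulators, 13 were above 0 between MDA-MB-231 EV and PBS, with a median log2 change of 0.55. Between MCF-10A EV and PBS 6 were above 0 (median -0.03), and 13 between MDA-MB-231 EV and MCF-10A EV (median 0.61). In the same order, 69.7%, 56.8% and 65.0% of all tested genes were above 0, with medians of 0.21, 0.07 and 0.17. Nr1i3, the gene of CAR, stood at 311, 157 and 105 TPM in PBS, 61.8, 100.2 and 154 in MCF-10A EV, and 303, 97.8 and 1081 in MDA-MB-231 EV, highest in a library where most UGTs were low. Ahr stood at 15.6, 12.3 and 10.2 TPM in PBS, 5.59, 3.44 and 6.29 in MCF-10A EV, and 17.6, 7.65 and 12.1 in MDA-MB-231 EV. Its MCF-10A EV libraries were below every other library, with a log2 change of -1.18 ± 0.40 against PBS (limma adjusted p = 0.893). Nfe2l2, the gene of NRF2, stood between 18.5 and 41.8, 24.3 and 43.9, and 11.6 and 42.3 TPM in the 3 groups. Ppara had a log2 change of 1.92 ± 0.68 between MDA-MB-231 EV and MCF-10A EV. It stood at 80.95, 11.7 and 79.15 TPM in MDA-MB-231 EV and at 11.83, 10.9 and 9.06 in MCF-10A EV. MDA-MB-231 EV 2 thus lay inside the MCF-10A EV range. Esr1 had a log2 change of 0.69 ± 0.36 between MDA-MB-231 EV and PBS. Neither gene was called.

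Of 11 tested targets outside the families, 10, 9 and 10 were above 0 in the 3 comparisons, against 69.7%, 56.8% and 65.0% of all tested genes. Osgin1, a target of NRF2, stood at 31.9, 21.7 and 29.6 TPM in PBS, 33.4, 41.2 and 35.6 in MCF-10A EV, and 98.1, 63.7 and 64.5 in MDA-MB-231 EV. Its MDA-MB-231 EV libraries were above every other library, MDA-MB-231 EV 3 included, with a log2 change of 1.40 ± 0.36 against PBS (limma adjusted p = 1). Nqo1, the classical NRF2 target, stood between 2.06 and 4.92, 2.94 and 6.69, and 5.44 and 9.04 TPM. Cyp2b10, the classical CAR target, stood at 51.3, 19.5 and 11.7 TPM in PBS, 3.59, 5.71 and 14.8 in MCF-10A EV, and 29.0, 72.8 and 31.2 in MDA-MB-231 EV. Its log2 change was -1.60 ± 0.64 for MCF-10A EV against PBS and 2.40 ± 0.64 for MDA-MB-231 EV relative to MCF-10A EV (limma adjusted p = 0.564 for the second).

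Lists of sex-biased and acute phase genes were described because both bear on several members. Of 9 female-biased genes, 8, 3 and 8 were above 0 in the 3 comparisons (69.7%, 56.8% and 65.0% of all tested genes) and 0 were called. Acot3, an acyl-CoA thioesterase, had a log2 change of 2.65 ± 0.88 between MDA-MB-231 EV and MCF-10A EV. Of 6 tested male-biased genes, 2, 1 and 5 were above 0 and 0 were called. The smallest p of that list fell to Cyp7b1 against PBS (-0.39 ± 0.44 for MDA-MB-231 EV and -0.98 ± 0.44 for MCF-10A EV) and to Mup20 between the EV groups (-1.35 ± 0.79). All 8 acute phase genes were above 0 between MCF-10A EV and PBS, with a median log2 change of 2.49, and 0 were called. Their sum was 101781 TPM in MCF-10A EV 1 against 4103 to 19276 in the other libraries, and Orm2 had the smallest p (2.69 ± 0.94). In that library Gstm3 and Sult1e1 had their highest and Sult2a8 and Sult3a1 low values, and the part of the acute phase in those was not tested.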

How the data were processed

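Liver RNA of 9 samples was sequenced from libraries made with the TruSeq RNA kit, per the labels' protocols. The authors deposited TPM for each library. HISAT2, StringTie, RSEM and the mouse build GRCm39 are named in the submitters' processing notes, without versions or roles, and the sources used here do not give whether strand was kept. TPM keeps no depth, so precision rests on the spread of 3 libraries per group. The 3 MCF-10A EV libraries had TPM totals of 979351, 946777 and 934986, with every assembled locus at 0, so assembled loci were left out and rescaling was an alternative.

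Log2(TPM + 1) of Ensembl features with a mean of at least 1 TPM was fitted with limma 3.58.1 in R 4.3.3, 1 mean for each group, all 9 libraries in the fit, two-sided tests and a prior variance that follows the mean. The method was tested on simulated data. Members, gene lists and alternatives were chosen with earlier results of these data known. Named were each subfamily's most abundant member, Ugt1a1, Sult1e1, Sult2a8 and Sult3a1, and, per comparison, the 3 smallest p of the GSTs, UGTs and SULTs, 1 of the MGSTs and 1 of each pathway list. Other genes named were chosen after their values were seen. One result that this rule names is not reported here. Shared words are 50-base stretches of GENCODE transcripts found in another gene. Promoters came from the RefSeq table (GRCm38.p6), and chromosomes from GENCODE (GRCm38).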

Additional observations from a re-analysis of the deposited data

How the results depend on the processing

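Among the values of named members under the alternatives, 582 kept their direction and their side of the threshold and 7 reversed. Those 7 concerned Mgst1 and Ugt1a2. Mgst1 between MDA-MB-231 EV and MCF-10A EV became 0.053 without PBS 1 and MDA-MB-231 EV 3 (leave-one-out range -1.21 to 0.053). Mgst1 between MDA-MB-231 EV and PBS became 0.25 (leave-one-out range -0.60 to 0.67, with 0.063 without PBS 2, 0.046 without PBS 3 and 0.67 without MDA-MB-231 EV 3). Ugt1a2 between MCF-10A EV and PBS had a leave-one-out range of -1.99 to 0.34, the latter without MCF-10A EV 1. Members called were 0 throughout.

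The counts of all genes called moved more, and the cause was not tested. Between MCF-10A EV and PBS, 25 became 40 with a pseudocount of 0.1, 12 with no filter, 548 with array weights, 66 with only the 2 groups fitted and 85 without PBS 1 and MDA-MB-231 EV 3, and leaving out one library gave 14 (without MCF-10A EV 3) to 59 (without MDA-MB-231 EV 3), with 54 without PBS 1 and 15 without PBS 3. Between MDA-MB-231 EV and MCF-10A EV, 28 became 11 with no filter, 17 with a mean of at least 5 TPM, 46 with array weights and 17 with only the 2 groups, and leaving out one library gave 13 (without MCF-10A EV 3) to 31, with 15 without MCF-10A EV 2 and 17 without MDA-MB-231 EV 2. Between MDA-MB-231 EV and PBS, 0 became 28 without PBS 1 and MDA-MB-231 EV 3, and leaving out one library gave 0 to 24, the latter without PBS 1, with 5 without MDA-MB-231 EV 3.

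Replicate numbers are shared across groups. Same-numbered libraries deviated together, with r over 0.1, in 4 of 9 pairs (r from -0.39 to 0.50). Between the 2 EV groups r was 0.34, 0.11 and 0.44 for numbers 1, 2 and 3. With PBS it was -0.21, -0.09 and -0.16 for MCF-10A EV and -0.28, 0.50 and -0.39 for MDA-MB-231 EV. Of 9 libraries, 5 had their own number as the closest library of another group. A replicate block gave 0 members called and moved all genes called between MDA-MB-231 EV and MCF-10A EV from 28 to 15. With 3 libraries per group and no depth, a difference in a member that misses the threshold is not shown to be absent.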
